A study of Canis lupus familiaris with 6 samples.

Results

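The miR-17-92 cluster is a group of 6 miRNAs cut from 1 precursor transcript (miR-17, miR-18a, miR-19a, miR-20a, miR-19b and miR-92a), and miR-106a belongs to its X-linked paralogue cluster. These 7 miRNAs (cfa-miR-17, cfa-miR-18a, cfa-miR-19a, cfa-miR-19b, cfa-miR-20a, cfa-miR-92a and cfa-miR-106a in the files, written here without the prefix for dog) were taken by name from an Agilent array of 289 canine miRNAs, with all 15 of their probes and all 280 of their spots per array (of 656 probes and 11560 spots other than controls). They were measured in 3 canine mammary cancer lines, CMT-U27, CMT-U309 and P114, which had been stained for stem cell antigen 1 (Sca1), a surface protein that marks some stem cells, and separated by flow cytometry. Per the labels the Sca1+ fraction stands for cancer stem cells and the Sca1- fraction is the control. With 1 sample of each fraction from each line, the series holds 6 samples, 3 of each fraction. All samples share the same culture medium, and no added agent is named. The label descriptions of both P114 samples speak of growth with macrophages, those of the other 4 samples of mono-culture, and the titles and sources mention no macrophages. How far the sorted fractions were pure, and whether a line was 1 clone, is not given in the sources used here, and no probe measures Sca1 itself.

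The cluster is a well-known direct target of the transcription factor MYC and is gained or overexpressed in many tumours, which gave it the name oncomiR-1. Its members act on separate sets of messages. miR-17, miR-20a and miR-106a restrain E2F1 and the cell cycle inhibitor CDKN1A, and miR-92a and the miR-19 pair act on the pro-apoptotic gene BCL2L11 (BIM). Although 1 transcript holds all 6, their mature levels can differ through processing, decay and the paralogue locus.

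Of the 6 arrays 3 were bright (B1, B2 and B3, with 89 to 111 miRNAs detected and summed signals of 69282 to 70794 intensity units) and 3 dim (D1, D2 and D3, with 39, 22 and 9 detected and summed signals of 3228, 1277 and 319.5). The deposited files place the arrays in 2 ways. By the scanner files as attached to the samples, B1 and B2 were CMT-U309 Sca1+ and Sca1-, D1 and D2 were CMT-U27 Sca1+ and Sca1-, and D3 and B3 were P114 Sca1+ and Sca1-. By the columns of the deposited value table, B1 and B3 were P114 Sca1+ and Sca1-, D1 and B2 were CMT-U27 Sca1+ and Sca1-, and D2 and D3 were CMT-U309 Sca1+ and Sca1-. The fraction was the same in both assignments for 4 arrays (B1 and D1 as Sca1+, B2 and B3 as Sca1-), and the line for 2 (D1 and B3). Which assignment is right could not be settled, so each value is given by its array and each comparison by both. In the value-table assignment each line lay in its own column of the slide, so line and slide column cannot be told apart there.

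The probes show what each measurement can and cannot separate. An Agilent miRNA probe is complementary to the 3′ end of its miRNA, and the longest probe of each member, as deposited and written 5′ to 3′, is printed here because its letters decide which relatives it could also bind.
miR-17: ctacaagtgccttcac
miR-18a: tatctgcactagatgcac
miR-19a: tcagttttgcatagatttgca
miR-19b: cagttttgcatggatttg
miR-20a: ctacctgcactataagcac
miR-92a: acaggccgggacaagt
miR-106a: ctacctgcactgtaagc

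Of the 21 pairs of members, 2 had longest probes that differed by 1 base over their shared stretch. These were miR-20a and miR-106a (A12G) and miR-19a and miR-19b (A13G), with positions counted from 1 at the 5′ end of the first probe named and the differing base in capitals.
miR-20a: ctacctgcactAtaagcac
miR-106a: ctacctgcactGtaagc
miR-19a: tcagttttgcatAgatttgca
miR-19b: cagttttgcatGgatttg

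The miR-17 probe stood apart from its family. Over 16 shared bases it had 8 mismatches with the miR-20a probe and 8 with the miR-106a probe. The 5p arms of miR-17, miR-20a and miR-106a are known to be nearly identical, which the letters of this probe are not, and the files do not name its arm. The values under the name miR-17 are therefore given on their own and not as those of the miR-20a and miR-106a family. Mature sequences and seeds were not used here.

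Some X-linked relatives have probes that differ by 1 base from a member's probe. The longest miR-18b probe differed from that of miR-18a at 1 position (T3A), and the longest miR-20b probe from that of miR-106a at 1 position (A14G).
miR-18a: taTctgcactagatgcac
miR-18b: taActgcactagatgcac
miR-106a: ctacctgcactgtAagc
miR-20b: tacctgcactgtGagc
miR-18b and miR-20b were detected on no array. On each of B1, B2 and B3, 0 of the 40 miR-20b spots and 0 of the 40 miR-18b spots were well above background. Of the miR-106a spots 40 of 40 were on each, and of the 40 miR-18a spots 30 were on B1, 20 on B2 and 20 on B3. So on the bright arrays the miR-20b probe read nothing above background beside a miR-106a that was detected, 1 base away. The miR-20b probes have 15 and 16 bases, and miR-106a has probes of these lengths beside its longest, of 17. On B1 the miR-106a probes averaged 35.6 at 15 bases and 151 at 16, where those of miR-20b averaged -3.19 and 1.07. Length alone moved signals too, since on B1 the miR-17 probes averaged 2.66 at 15 bases and 35.5 at 16. The gap between the miR-106a and miR-20b probes on B1 was thus there at equal length, and the part of the mismatch in it was not tested.

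The probe mappings in the files (build canFam2, coordinates as the files give them) place the 6 cluster members on the plus strand of chromosome 22 within 716 bases. In order they are miR-17 at chr22:45426556-45426570, miR-18a at chr22:45426655-45426671, miR-19a at chr22:45426835-45426854, miR-20a at chr22:45426965-45426983, miR-19b at chr22:45427138-45427155 and miR-92a at chr22:45427256-45427271. miR-106a maps to the minus strand of chromosome X at chrX:107958229-107958244, beside miR-18b, miR-20b, a second copy of miR-19b, a second copy of miR-92a, and miR-363, in 833 bases. The miR-19b and miR-92a probes thus map to both clusters and cannot tell the copies apart. In the RefSeq annotation of the later assembly UU_Cfam_GSD_1.0 the chromosome 22 miRNAs stand in the same order inside the long non-coding RNA LOC119865213, with SLITRK5 and GPC5 as the nearest protein-coding genes.

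All 7 members were detected on each of the bright arrays, 4 of them (miR-19a, miR-20a, miR-92a and miR-106a) on D1, and 0 on D2 and D3. Over the whole array 78 of 289 miRNAs (27%) were detected on B1, B2 and B3. On D1, 39 of 289 (13.5%) were detected, and 37 of the 78 detected on every bright array (47.4%), beside 4 of 7 members. The value is the scanner software's total gene signal, a sum over a miRNA's probes in intensity units that is not scaled between arrays, and the ± after it is the software's own error over spots. That error is technical and holds no spread between cultures.

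cfa-miR-20a, with its E2F and cell cycle targets, gave 775 ± 56.9 on B1, 820 ± 60.2 on B2, 528 ± 38.8 on B3 and 78.4 ± 7.45 on D1. Its paralogue cfa-miR-106a gave 399 ± 27.4 on B1, 417 ± 29.4 on B2, 269 ± 19.4 on B3 and 35.6 ± 4.02 on D1. Both were about level on B1 and B2, within the software's error, and lower on B3.

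cfa-miR-19a, the member with the longest probes, gave 791 ± 56.9 on B1, 430 ± 31.9 on B2, 375 ± 27.6 on B3 and 67.9 ± 6.74 on D1. cfa-miR-19b gave 147 ± 15.2 on B1, 72.7 ± 9.23 on B2 and 49.7 ± 6.57 on B3, with no detection on D1. For both, B1 stood well above B2 and B3.

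cfa-miR-18a, which represses the oestrogen receptor gene ESR1, gave 144 ± 13.7 on B1, 85.8 ± 10.3 on B2 and 58.5 ± 7.27 on B3. cfa-miR-92a gave 273 ± 21.6 on B1, 225 ± 19.1 on B2, 166 ± 14.4 on B3 and 26.3 ± 4.22 on D1. The signal named cfa-miR-17 was 48.1 ± 6.05 on B1, 42.1 ± 7.08 on B2 and 40.0 ± 5.87 on B3, which overlap within the software's error. miR-18a and miR-92a fell in the order B1, B2, B3. Levels of different miRNAs are not compared here, since each probe has its own affinity.

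**Figure D1:**
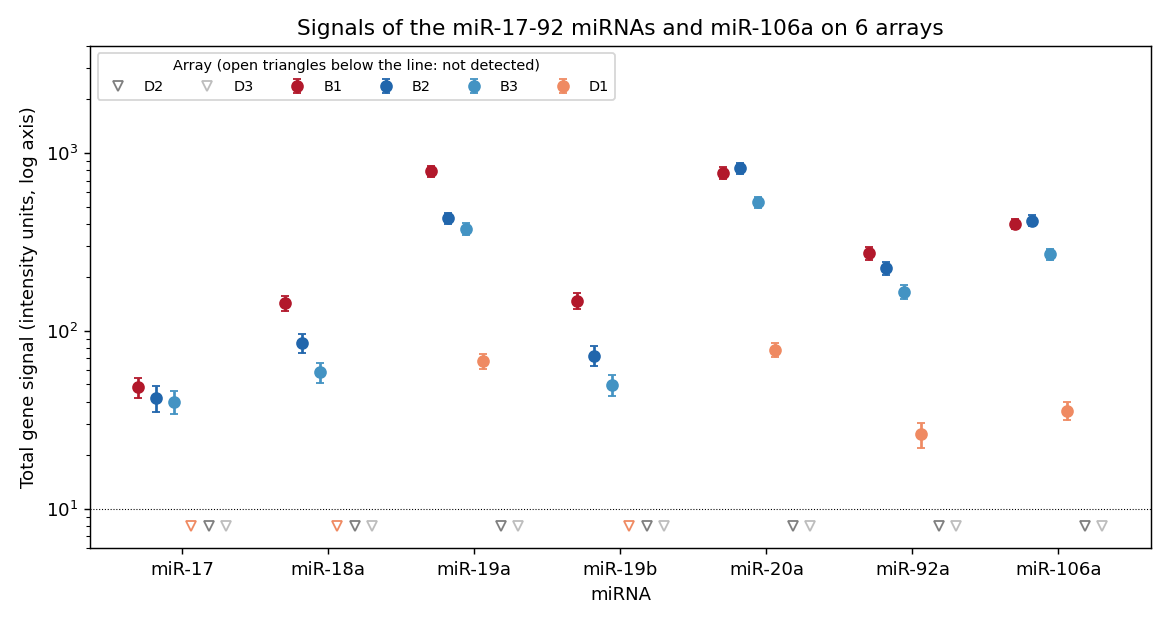
Total gene signal (intensity units, log axis) of the 7 miRNAs on each array, with bars for the scanner software's error and open triangles below the dotted line for miRNAs not detected. All 7 were detected on B1, B2 and B3, 4 on D1 and 0 on D2 and D3.

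On the array spots the members were measured evenly where they were bright. None of the 1680 member spots over the 6 arrays was saturated, and 113 were flagged as outliers and left out. On the bright arrays 37 of 45 combinations of probe and array had at least 50% of spots well above background, and over these the coefficient of variation between spots ranged from 2.76% to 19.6%, with a median of 6.27%. The shorter probes of miR-17 (15 bases) and miR-19b (17 bases) were well above background on no bright array, so the values of these 2 miRNAs rest on 1 probe each. The 17-base probe of miR-18a passed on B1 alone.

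On D2 and D3 the members' probes sat around 0. The brightest of them, the 19-base miR-20a probe, averaged 5.48 ± 1.59 (SD over 19 spots) on D2 and 2.46 ± 1.22 (SD over 16 spots) on D3, with 0 of 20 spots well above background on each. On D2, 1 of 40 spots was well above background for each of miR-19a, miR-19b, miR-20a and miR-92a, and 0 of 40 for the others. On D3 there was none for any of the 7 members.

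B1 was compared with B2 as the CMT-U309 pair in the scanner-file assignment, and with B3 as the P114 pair in the value-table assignment. Each is Sca1+ over Sca1- within 1 line, in 1 sample each, and has no replicate check. For B1 over B2, miR-19b had a ratio of 2.03 ± 0.332, miR-19a 1.84 ± 0.190 and miR-18a 1.68 ± 0.257. The other 4 lay lower, with miR-92a at 1.21 ± 0.141, miR-17 at 1.14 ± 0.240, miR-106a at 0.958 ± 0.0942 and miR-20a at 0.945 ± 0.0981. Over all 78 miRNAs detected on the bright arrays the median ratio was 1.41 (quartiles 0.871 and 2.01), so 3 of the 7 members were above the median. Most of the array thus read higher on B1 than on B2, while miR-20a and miR-106a lay within their error of equal signals.

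For B1 over B3, miR-19b again had the highest ratio of the 7, at 2.97 ± 0.498, followed by miR-18a at 2.46 ± 0.385 and miR-19a at 2.11 ± 0.217. miR-92a was at 1.64 ± 0.193, miR-106a at 1.48 ± 0.148, miR-20a at 1.47 ± 0.153 and miR-17 at 1.20 ± 0.233. The median of all 78 was 1.47 (quartiles 0.957 and 2.06), and 6 of 7 members were above it. miR-20a and miR-106a lay at the median, while miR-18a, miR-19a and miR-19b lay above the upper quartile. These comparisons share array B1, so their likeness is not counted as repeat evidence.

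B2 and B3 are both Sca1- and come from different lines in either assignment. miR-20a and miR-106a had the highest ratios of B2 over B3 among the 7, both 1.55, and miR-18a and miR-19b followed at 1.47 and 1.46. miR-92a was at 1.35, miR-19a at 1.15 and miR-17 at 1.05. All 78 miRNAs had a median of 1.06 and an upper quartile of 1.22, and 6 of 7 members were above the median. B3 was the lowest of the bright arrays for 7 of 7 members, where 37 of 78 miRNAs (47.4%) had that order. B1 was the highest for 5 of 7, where 51 of 78 (65.4%) were.

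**Figure D2:**
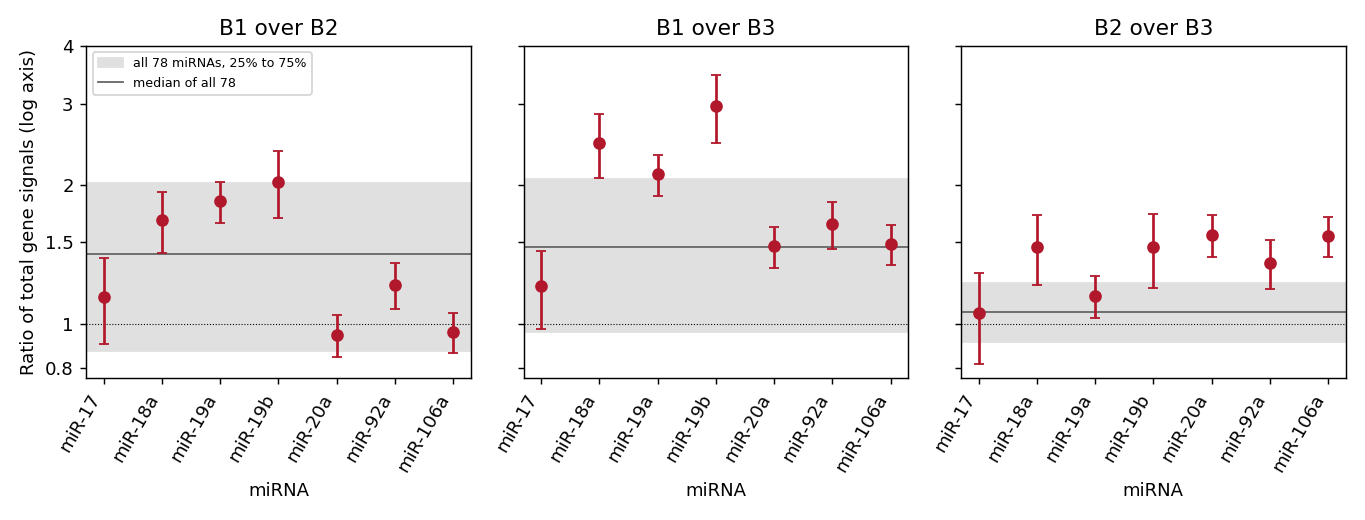
Ratio of total gene signals between bright arrays (log axis) for each of the 7 miRNAs, with bars for the scanner software's error, beside the median (line) and the quartiles (grey band) of all 78 miRNAs detected on these arrays. miR-18a, miR-19a and miR-19b lie above the median of all miRNAs in both ratios that have B1 on top, and miR-20a and miR-106a do so most clearly in B2 over B3.

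On D1, CMT-U27 Sca1+ in both assignments, the 4 detected members stood closer to their levels on the bright arrays than most miRNAs did. B1 over D1 was 11.6 for miR-19a, 11.2 for miR-106a, 10.4 for miR-92a and 9.88 for miR-20a, where the median of 37 miRNAs was 17.5. B2 over D1 ranged from 6.33 to 11.7 against a median of 12.5, and B3 over D1 from 5.53 to 7.55 against 11.1. In each of the 3 ratios 0 of 4 members were above the median. The ratios share D1, and the members on D1 are those bright enough to be seen there. In the value-table assignment B2 is the Sca1- partner of D1, so those 4 members read 6.33 to 11.7 times higher in Sca1- of CMT-U27 before any scaling, on arrays whose summed signals were 70794 and 3228. In the scanner-file assignment the partner is D2, where 0 members were detected.

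The ratio of 2 members within an array needs no scaling between arrays, because any factor common to the array drops out. The log2 ratio of miR-106a over miR-20a was -0.96 on B1 (error 0.14), -0.98 on B2 (error 0.15), -0.97 on B3 (error 0.15) and -1.14 on D1 (error 0.21). Over B1, B2 and B3 it moved by 0.0188, the smallest range of the 21 pairs of members. Of the 3003 pairs among the 78 miRNAs, 3 moved as little or less, this pair among them. The range is smaller than the error of each ratio, so no difference between these arrays was measurable. The share that 1 probe's signal owes to the other miRNA, with 1 base between the probes, was not tested.

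The members did not move as 1 block. The 21 pairs had a median range of 0.60, against 1.12 over all 3003 pairs. The widest was miR-17 with miR-19b at 1.30, followed by the pairs of miR-19b with miR-20a and with miR-106a, the latter at 1.08. miR-18a with miR-19b moved by 0.28 and miR-19a with miR-19b by 0.49. miR-19a with miR-20a, neighbours on chromosome 22 and both bright, moved by 0.96. With D1 added, the 6 pairs of miR-19a, miR-20a, miR-92a and miR-106a ranged from 0.18 to 0.96 with a median of 0.52, and the 666 pairs of miRNAs detected on all 4 arrays had a median of 1.93.

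**Figure D3:**
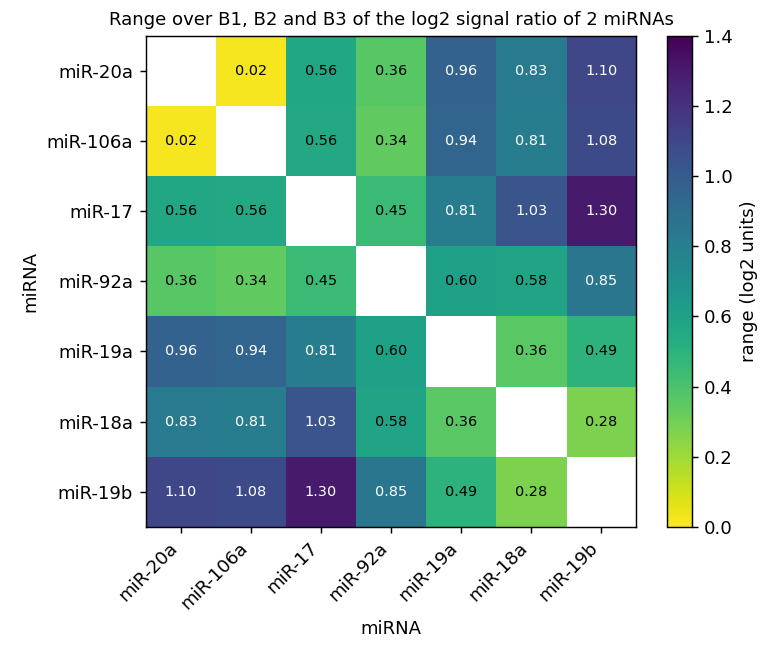
Range over B1, B2 and B3 of the log2 ratio of total gene signals for each pair of the 7 miRNAs, from 0.0188 for miR-20a with miR-106a to 1.30 for miR-17 with miR-19b. miR-18a, miR-19a and miR-19b form the paler block at the lower right, and their pairs with miR-20a and miR-106a are darker.

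As a share of the summed signal of the array the 7 members made up 3.72% on B1, 2.96% on B2, 2.12% on B3 and 6.45% on D1, and none of the signal on D2 and D3. miR-20a with miR-106a made up 1.69%, 1.75%, 1.14% and 3.53% on B1, B2, B3 and D1. miR-19a with miR-19b made up 1.35%, 0.710%, 0.606% and 2.10%. On the bright arrays the miR-19 pair was thus highest on B1 and the pair of miR-20a and miR-106a on B2, by a small margin. miR-92a made up 0.395%, 0.318%, 0.237% and 0.814%, and miR-18a 0.208%, 0.121% and 0.0834% on the bright arrays. The total for Sca1+ was 3.39% ± 3.24 (SD, n = 3) and that for Sca1- 1.69% ± 1.52 (SD, n = 3). Both were the same in the 2 assignments because D2 and D3 are at 0. That 0 stands for no detection on arrays with summed signals of 1277 and 319.5, and is not a measured share. In either assignment 1 of these arrays enters each mean. The difference of 1.70 percentage points is smaller than the SD of the Sca1+ arrays, which ran from 0 to 6.45%, and without D1 it was 0.169 percentage points. In bulk RNA of this kind, fewer cells that express a miRNA and less of it per cell cannot be told apart.

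Sca1+ was tested against Sca1- over all 6 arrays with limma, with the line as a term and adjustment by Benjamini-Hochberg over the 80 miRNAs detected on at least 3 arrays. By the scanner files 0 of 7 members and 0 of 80 miRNAs (0%) passed an adjusted p of 0.05, and all members had an adjusted p of 0.995 in limma's test. Of all 80, 0 had an unadjusted p under 0.05. The members' standard errors in this fit ran from 1.69 for miR-20a to 3.78 for miR-18a on the log2 scale. Under the value-table assignment 0 of 7 and 0 of 80 (0%) passed, with limma adjusted p values of the members from 0.792 to 0.958, and 3 of 80 miRNAs but 0 members had an unadjusted p under 0.05. In both assignments at least 1 line has a dim array with no detected member. Where a member was detected on 1 side of a contrast alone, a lower bound on the fold was computed from the lowest signal well above background. This was done between fractions within a line and between lines, and the bounds of both kinds are pooled in the counts below. With the scaling used for the test, 0 of 17 bounds in each assignment exceeded 1, the highest being 0.791 and 0.786. The bounds depended on the scaling, since without any 14 of 17 (by the scanner files) and 16 of 17 (value-table assignment) exceeded 1, up to 19.1 and 22.7, on arrays of very unequal brightness, and with quantile scaling 1 (1.41) and 0 did. The 19.1 belongs to the fractions of P114 and the 22.7 to the lines P114 over CMT-U309, both for miR-20a. Because the bounds depended on the scaling, no fold is given.

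The 3 lines were compared in the same fits. By the scanner files 0 of 80 miRNAs (0%) and 0 members passed, with limma adjusted p values of the members from 0.888 to 0.926, and 4 of 80 miRNAs had an unadjusted p under 0.05. Under the value-table assignment 14 of 80 (17.5%) passed, among them miR-17 and miR-18a (both at an adjusted p of 0.0129), miR-106a (0.0131) and miR-92a (0.0188), while miR-19a (0.182), miR-19b (0.388) and miR-20a (0.568) did not. In that assignment both CMT-U309 arrays are D2 and D3, on which no member was detected. Every probe of the 4 that passed averaged below 0 there, so their CMT-U309 values rest largely on the replacement for signals of 0 or less. Their adjusted p values thus set detected signals against that replacement and do not measure a fold. All 4 were called lower for CMT-U309 over CMT-U27 (17.5% of all 80 lower) and higher for P114 over CMT-U309 (27.5% of all 80 higher and 2.5% lower), and 0 members and 0 of 80 (0%) were called for P114 over CMT-U27. With normexp background correction both directions turned, with 5 members called higher for CMT-U309 over CMT-U27 (78.8% of all miRNAs higher and 1.25% lower) and 7 called lower for P114 over CMT-U309 (83.8% of all lower and 1.25% higher). With dim signals raised to the detection limit both directions turned too, with 4 members called higher for CMT-U309 over CMT-U27 (68.8% of all higher and 1.25% lower) and 4 lower for P114 over CMT-U309 (67.5% of all lower and 1.25% higher). No direction between lines is therefore given for the members.

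B1 was tested against B2 and B3 on the bright arrays alone, where all members were measured. This contrast sets 1 Sca1+ sample against 2 Sca1- samples, mixes lines, has 1 residual degree of freedom and assumes that the lone Sca1+ array varies like the others. On the log2 scale, after scaling by the 75th percentile, miR-19b differed by 0.97 (SE 0.29), miR-19a by 0.63 (SE 0.29) and miR-18a by 0.51 (SE 0.29). miR-92a differed by 0.15 (SE 0.28), miR-20a by -0.053 (SE 0.31), miR-17 by -0.087 (SE 0.30) and miR-106a by -0.12 (SE 0.30). None of the 7 passed limma's adjusted p of 0.05, where 4 of 90 miRNAs (4.44%) did, all of them lower. The lowest limma adjusted p among the members was 0.164, for miR-19b, which was also the only member with an unadjusted p under 0.05, as 23 of 90 miRNAs were. The median over the 7 was 0.15 and over all 90 it was 0.18.

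Leaving out the scaling, or taking it over all probes, moved all miRNAs alike here, while quantile scaling did not. The members are therefore read against the median of all miRNAs tested under the same setting. Without scaling every member moved by 0.32 on the log2 scale, and with the 75th percentile taken over all probes every member moved by -0.46. Less that median, miR-19b lay above 0 in 10 of 10 settings (0.28 to 2.25), and miR-20a (-0.70 to -0.090) and miR-106a (-0.77 to -0.16) lay below 0 in 10 of 10. miR-18a lay above 0 in 9 of 10 and miR-19a in 8 of 10, while miR-17 and miR-92a lay below it in 8 of 10. The 10 settings are not separate checks. Once the median is taken off, the main setting, no scaling and scaling over all probes agree by construction. The floor, the fit without a filter and the filter on every array kept the members' main values and changed the median alone. Fits that left out an array are not among the 10. Without B2, miR-20a was at 0.16 and miR-106a at 0.048 beside a median of 0.10, so miR-20a then lay above it. Without B3 they were at -0.41 and -0.44 beside a median of 0.12. These positions describe 3 arrays and were not tested. With normexp background correction, miR-17 (0.72, adjusted p = 0.0183), miR-18a (0.66, adjusted p = 0.0296) and miR-19b (0.82, adjusted p = 0.00931) passed limma's test, but 47.8% of all 90 miRNAs were then called higher and 12.2% lower.

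**Figure D4:**
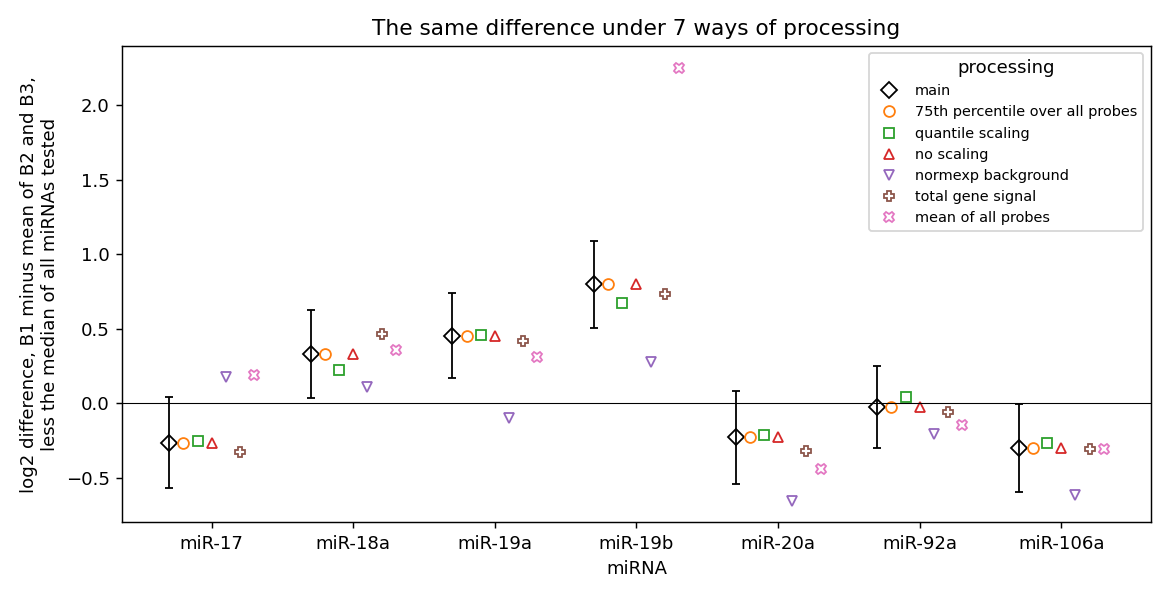
Log2 difference of B1 from the mean of B2 and B3, less the median of all miRNAs tested, for each of the 7 miRNAs under 7 ways of processing, with bars for the standard error of the difference in the main processing. miR-18a and miR-19b stay above 0, miR-20a and miR-106a stay below it, and miR-17, miR-19a and miR-92a cross it under at least 1 setting. The main processing, no scaling and scaling over all probes coincide by construction.

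Probes of 1 member could be compared where both were above background. The log2 difference of B1 from B2 and B3 was 0.70 by the 20-base probe of miR-19a and 0.63 by its 21-base probe. For miR-20a it was -0.13 by the 18-base and -0.053 by the 19-base probe. For miR-92a it was 0.25 by the 15-base and 0.15 by the 16-base probe. In these 3 miRNAs both probes gave the same sign. For miR-106a it was 0.29 by the 15-base, -0.047 by the 16-base and -0.12 by the 17-base probe, so its sign depended on the probe. The short miR-19b probe gave 4.23, from spots not above background, which is why the mean over probes puts miR-19b so high in the plot of processing choices.

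Of the relatives, the 3 detected on every bright array were highest on B1. miR-106b, of the same seed family as miR-20a and read from the MCM7 gene with miR-93 and miR-25, gave 766 on B1, 337 on B2, 316 on B3 and 41.7 on D1. miR-93 gave 489, 296, 222 and 20.4, and miR-25, a relative of miR-92a, gave 290.5, 141, 115 and 12.4 on the same arrays. B1 over B2 was 2.27 ± 0.248 for miR-106b, 2.06 ± 0.253 for miR-25 and 1.65 ± 0.204 for miR-93, beside 1.68 to 2.03 for miR-18a, miR-19a and miR-19b. The log2 differences on the bright arrays were 0.88 for miR-106b, 0.57 for miR-93 and 0.85 for miR-25, with a median of 0.85 over the 3 of 7 relatives that could be tested, and 0 of 3 passed. miR-92b was detected on B2 alone, at 9.13, and miR-363, miR-18b and miR-20b on no array. These last 3 share the chromosome X locus with miR-106a, which was the only one of the 4 detected. With 1 base between the longest miR-106a and miR-20a probes, the share of miR-20a in the miR-106a signal was not tested.

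Among all 78 miRNAs, likeness to the members was measured as the root mean square difference of centred log2 signals over the 3 bright arrays from the members' median profile, which was 0.33 on B1, -0.040 on B2 and -0.40 on B3. The closest from outside were miR-16 (0.0677), miR-29c (0.0932), miR-26a (0.0942), miR-130a (0.0974) and miR-188 (0.134), where the median over all 78 was 0.330. miR-16 gave 1595 on B1, 1189 on B2 and 872 on B3, and miR-130a gave 540, 361 and 317. Of the members, miR-92a lay closest to their own median (0.0535) and miR-19b farthest (0.360). With 3 arrays the measure describes these arrays only.

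MYC is also known to lower a set of miRNAs that restrain growth, among them let-7, miR-15a, miR-16, miR-26, miR-29, miR-30 and miR-34a. Of 24 such miRNAs on the list, 21 were tested on the bright arrays. There 0 of 21 were called higher and 2 of 21 lower on B1 (miR-34a and miR-99b), beside 0% and 4.44% of all 90. Of the 21, 11 had values above 0 and 10 below, and the median was 0.031 beside 0.18 over all 90. miR-16, miR-29c and miR-26a, of this list, are also among the outside miRNAs closest to the members' median profile over B1, B2 and B3. The part of MYC in these values was not tested.

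Markers of cell type differed between the same arrays. Of 7 epithelial miRNAs, 5 were detected on B1 (summed signal 5129), 1 on B2 (28.9) and 0 on B3, so the markers of the labelled mammary cell type were at or near 0 on the Sca1- bright arrays, and on the dim arrays 1 was detected (23.9, on D2). Of 5 mesenchymal and stromal miRNAs, B1 detected 1 (summed signal 19.9) and B2 and B3 detected 2 each (635 and 623). Of 5 leukocyte and macrophage miRNAs, B1 detected 3 (948), B2 and B3 detected 2 each (219 and 149), and D1, D2 and D3 detected 1 each (65.7, 59.6 and 61.2). Of the 2 erythroid miRNAs 1 was detected on B2 (18.1) and 1 on D2 (39.4), and none on the other arrays, and the endothelial miR-126 was detected on no array. The part of these differences in the members' values was not tested.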

How the data were processed

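RNA of 6 samples was labelled and hybridized to 1 slide of Agilent miRNA arrays. The authors deposited scanner output with an intensity for each spot. The software was Agilent Feature Extraction, with version 10.10.1.1 in the file headers and 10.7.3.1 in the submitters' processing notes, and it had subtracted background and detrended the processed signal, without scaling between arrays, per the file headers. The labels name the dye Cy5, while the files hold 1 green channel. The deposited value table holds total gene signals as intensity, and 2 of its 6 columns equalled the scanner file of the same sample, 4 that of another (311 features, relative tolerance 1e-04).

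Values of 0 or less were replaced by the array's smallest positive one. Log2 values were scaled by each array's 75th percentile over probes well above background on all arrays of the fit (10 probes of 6 miRNAs for 6 arrays, 122 probes of 70 miRNAs for the bright ones). Bright arrays detected over 50 miRNAs. Spots were averaged without outliers, and the probe with the highest mean stood for its miRNA. Tests used limma 3.58.1 in R 4.3.3 (files read with data.table, version 1.17.8), with 2 residual degrees of freedom, or 1 on bright arrays, and Benjamini-Hochberg adjustment over all tested miRNAs. The test script was checked on simulated data. Line pairs the samples, since both fractions were sorted from it. The labels do not say that samples came from separate cultures, so the spread behind each p-value may be technical, and it is that between these samples alone. The number of arrays limits the precision.

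All 7 members are named. Of the relatives those detected are named, of the MYC-repressed list those called, and the 5 outside miRNAs closest in likeness. Members and lists were chosen with earlier results of these data known. Alternatives covered background, scaling, floor, probe summary, filter, assignment, line term and leaving out each sample.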

Additional observations from a re-analysis of the deposited data

How the results depend on the processing

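For Sca1+ against Sca1- within lines, 0 members passed under every setting run, including the fit with no replicate block for line (0 members called) and each fit without 1 sample. Leaving out B1, B2 or B3 left 4 members in the test. A filter on detection on every array left no member over all 6 arrays and gives no value. For the lines, 0 members passed by the scanner files under all settings. By the value table the number of members called among the 3 lines, with the share of all miRNAs called, was 4 (17.5%), and it was 7 with normexp (82.5%), 4 with scaling over all probes (23.8%), 4 with quantile scaling (27.5%), 4 with the floor at the detection limit (68.8%), 4 with total gene signals (25%), 6 without scaling (57.5%) and 2 with the mean of all probes (15%). For CMT-U309 over CMT-U27 they were all lower, 4 (17.5%), 4 with all probes (16.2%), 4 with quantile scaling (26.2%), 4 with total signal (25%), 5 without scaling (40%) and 2 with the mean of probes (16.2%), except with normexp, where 5 were higher (80%), and the floor, where 4 were higher (70%). For P114 over CMT-U309 they were all higher, 4 (30%), 4 with all probes (25%), 4 with quantile scaling (40%), 4 with total signal (25%), 4 with the mean of probes (21.2%) and 6 without scaling (77.5%), except with normexp, where 7 were lower (85%), and the floor, where 4 were lower (68.8%). Settings combined with the value table were chosen after the data were seen, and without a filter none was called there.

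On the bright arrays normexp called 3 members (60% of all miRNAs). miR-17 turned to 0.72 with normexp, 0.23 without scaling and 0.54 with the mean of probes. miR-20a turned to 0.27 and miR-106a to 0.20 without scaling, and miR-106a to 0.039 with the mean of probes. miR-92a turned to -0.31 with scaling over all probes, -0.021 with quantile scaling and -0.054 with total gene signals. Without CMT-U309 Sca1- (B2) or P114 Sca1- (B3), by the scanner files, values with no residual degrees of freedom and no test ran from 0.19 to 0.67 for miR-18a, 0.50 to 0.61 for miR-19a, 0.67 to 1.13 for miR-19b, -0.41 to 0.16 for miR-20a, -0.071 to 0.23 for miR-92a and -0.44 to 0.048 for miR-106a. B1 is the only Sca1+ bright array and cannot be left out. The turns without scaling and with scaling over all probes follow from their construction, a shift of 0.32 and -0.46 common to all miRNAs, and the cause of the others was not tested. The difference in share between fractions, 1.70 percentage points, was 1.27 without miR-21 in the total, and ran from 0.169 (without CMT-U27 Sca1+, D1) to 3.39 (without P114 Sca1+ by the scanner files, D3), and 0.853 without D2.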
